A study of Mus musculus with 6 samples.

Results

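Guanylate-binding proteins (GBPs) and immunity-related GTPases (IRGs) are 2 families of interferon-inducible GTPases of the mouse, and 10 of their genes, taken by name from the deposited counts of 26814 gene symbols, are described here in lip tissue. They are Gbp2, Gbp3 and Gbp7 on chromosome 3, Gbp4, Gbp6 and Gbp9 on chromosome 5, Igtp, Irgm2 and Irgm1 on chromosome 11, and Iigp1 on chromosome 18. All 10 were found and all 10 had more than 1 CPM (reads of a gene scaled to a common library size) in each of the 6 libraries, so none passed the filter through one genotype alone. The study sequenced mRNA of the dissected top lip of adult female C57BL/6J mice, 3 wild type (WT) and 3 homozygous for the Gtf2ird1 targeted allele (KO), with 1 library per mouse and no treatment. The allele, Gtf2ird1tm1Hrd, is inherited and so present in all cells of the KO mice, whose lips were visibly overgrown and wrinkled. Because the whole lip was taken, a change in the number of cells of a type and a change in RNA per cell cannot be told apart.

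GBPs and IRGs are made when cells are exposed to interferons, above all to interferon gamma. GBPs are dynamin-like enzymes, several of them held on membranes by a lipid tail, that assemble on the vacuoles of intracellular bacteria and parasites and help to open them and to trigger inflammasomes. Among IRGs, Irgm1, Irgm2 and Igtp (also called Irgm3) sit on the cell's own membranes and hold the effector proteins in check, while Iigp1 (Irga6) is an effector that coats the parasite's vacuole. Epithelial and stromal cells, as well as macrophages, make them when exposed to interferon.

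The libraries held between 20164081 and 29491767 reads on genes, and the 10 genes had between 41 and 1285 reads in a library. A total of 15009 genes, those reaching 1 CPM in 3 or more libraries, entered edgeR's quasi-likelihood F test after TMM scaling, and adjusted p-values are Benjamini-Hochberg values over all of them with a threshold of 0.05. Gtf2ird1, the targeted gene, was higher and not lower in the libraries labelled KO, at 73.0 ± 4.50 CPM in WT and 157 ± 11.7 CPM in KO (SD, n = 3 mice each, log2 fold change 1.11, adjusted p = 0.0018 by the quasi-likelihood test). It overlaps Gm42882 on the opposite strand, and reads from the targeted allele and exchanged labels cannot be told apart from counts per gene. Directions below therefore refer to the libraries by their label, and KO stands for labelled KO throughout. The third KO library (KO3) stood apart from KO1 and KO2, since leaving it out raised the calls over all genes from 657 higher and 314 lower to 2496 and 2395. Calls of the 10 genes are given with and without it. Several other genes reported below as not passing with all libraries passed in 1 fit with a library left out.

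Windows from 250 bases before to 50 bases after the transcription start were held for 6 of the 10 genes in the RefSeq promoter table (GRCm38.p6), namely Gbp2, Gbp3, Gbp7, Igtp, Irgm1 and Irgm2. Gbp4, Gbp6, Gbp9 and Iigp1 had no entry. The windows were searched on both strands for the core of the interferon-stimulated response element (ISRE), written as GAAA, any 2 bases and GAAA, and for the gamma-activated site (GAS), written TTCNNNGAA. An ISRE core was present for all 6 genes, against 3.99% of 27018 genes in the table, and a GAS for 3 of the 6, against 9.55%. Per window the shares over the table were 3.44% and 8.30%, because some genes, Gbp3 among them, have more than 1 window. Of 7 further relatives with a window (Gbp2b, Gbp5, Ifi47, Tgtp1, Tgtp2, Gm12250 and Irgq), 5 held an ISRE core and 4 a GAS, so the matches are not particular to the genes described here. The stretches that carry them are shown because the 6 genes have them in common, read 5′ to 3′ along the strand of the gene, with ISRE cores and GAS matches in capitals and flanks in lower case.

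Gbp2, chr3:142620589-142620628, plus strand: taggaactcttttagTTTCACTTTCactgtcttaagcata
Gbp3, chr3:142559984-142560029, plus strand: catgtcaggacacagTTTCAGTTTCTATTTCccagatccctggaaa
Gbp7, chr3:142530215-142530307, plus strand: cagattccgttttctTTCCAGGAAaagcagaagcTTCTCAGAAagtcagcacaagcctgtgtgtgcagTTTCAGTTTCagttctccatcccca
Igtp, chr11:58199496-58199546, plus strand: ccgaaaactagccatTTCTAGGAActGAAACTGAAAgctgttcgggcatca
Irgm2, chr11:58214887-58214937, plus strand: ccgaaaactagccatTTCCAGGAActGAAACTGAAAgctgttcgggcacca
Irgm1, chr11:48871421-48871465, minus strand: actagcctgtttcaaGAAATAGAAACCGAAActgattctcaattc

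The first base of the ISRE core lay between 64 and 24 bases before the start in these genes. Gbp3 and Irgm1 each had 2 overlapping cores, and Gbp7 had 2 GAS matches upstream of its core. Igtp and Irgm2, which lie next to each other, were identical at 49 of the 51 positions of the stretch shown, with the substitutions T19C and T49C (Igtp base, position counted from 1 at the 5′ end of the stretch, Irgm2 base). In both, the first base of the core followed the first base of the GAS by 11 bases. That spacing, looked for after it had been seen in these 2 genes, occurred in 5 of 32841 windows (0.0152%), those of Igtp, Irgm2, Tgtp1, Tgtp2 and Gm12185. Tgtp1 and Tgtp2 are further IRG genes of the same chromosome. A match of letters is a description of the sequence and was not tested for binding.

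In all 10 genes the mean of the KO libraries was above that of the WT libraries, and 5 of the 10 passed the test as higher, namely Gbp2, Gbp3, Gbp7, Igtp and Irgm1. None was lower. Over all tested genes 4.38% were called higher and 2.09% lower. In 9 of the 10 all KO values lay above all WT values, which was the case for 13.5% of all tested genes. The median log2 fold change of the 10 was 1.70, beside -0.02 over all tested genes, and the 10 values ran from 0.66 for Gbp9 to 2.35 for Gbp3. The 10 genes are related, partly adjacent and respond to common signals, so these counts are no independent observations.

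**Figure D1:**
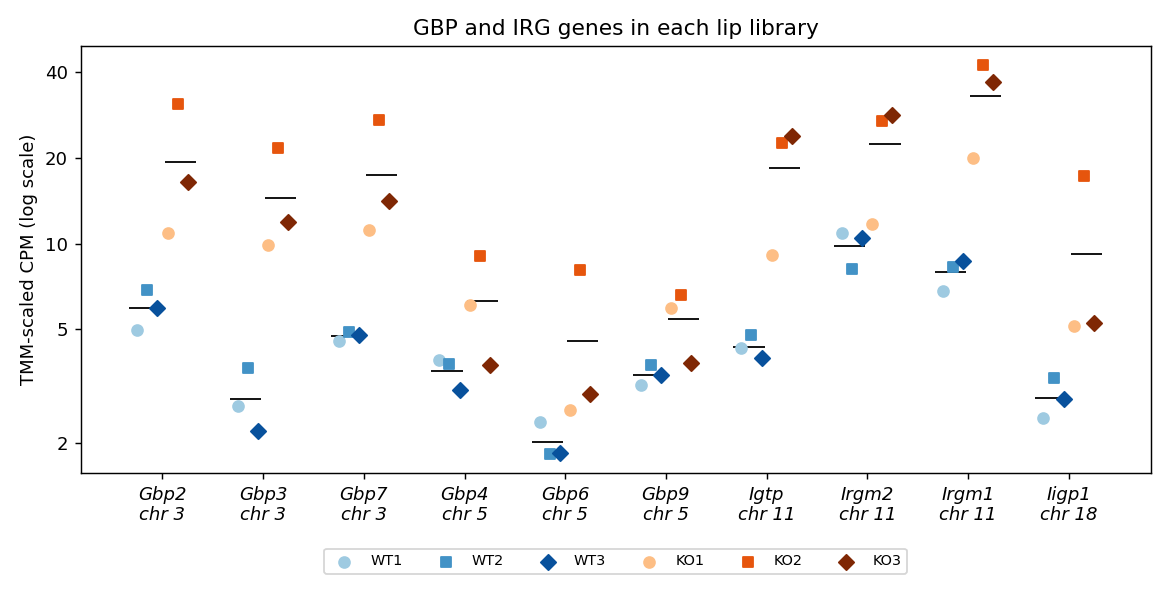
TMM-scaled CPM (log axis) of the 10 genes in each of the 6 libraries, WT in blues and labelled KO in orange to brown, with black lines at the mean of each genotype (n = 3). KO2 is the highest library in 8 genes and KO3 in Igtp and Irgm2, and the genotypes overlap in Gbp4 alone.

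Gbp2, Gbp3 and Gbp7 on chromosome 3 lie within 107.7 kb and all rose. Gbp2 (142620602 to 142638008), one of the GBPs with a prenylated C terminus that are recruited to parasite vacuoles, had 4.97, 6.89 and 5.94 CPM in WT1, WT2 and WT3 and 10.8, 30.9 and 16.4 CPM in KO1, KO2 and KO3. The genotypes did not overlap, KO2 was far above the other KO libraries, and the mean was 3.27 times that of WT (log2 fold change 1.71 with a standard error of 0.36, quasi-likelihood test adjusted p = 0.0345). Gbp3 (142560026 to 142573209) had 2.69, 3.66 and 2.20 CPM in WT and 9.88, 21.7 and 11.9 CPM in KO. It had the largest change of the 10, and even its lowest KO library was 3.47 times the WT mean (log2 fold change 2.35 with a standard error of 0.34, quasi-likelihood test adjusted p = 0.00618). Gbp7 (142530342 to 142550149) had 4.54, 4.89 and 4.77 CPM in WT and 11.2, 27.1 and 14.1 CPM in KO. Its WT libraries were the tightest of the 10 genes, with a coefficient of variation of 3.78%, and it rose 3.69-fold (log2 fold change 1.89 with a standard error of 0.32, quasi-likelihood test adjusted p = 0.0146). Gbp2 overlaps the microRNA gene Mir6381 on the opposite strand, and Gbp7 overlaps the gene model Gm43802 on the same strand.

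The 3 GBP genes of chromosome 5 lie within 216.1 kb, and none passed the threshold. Gbp4 (105115767 to 105139586) had 3.88, 3.78 and 3.06 CPM in WT and 6.09, 9.04 and 3.75 CPM in KO. KO3 fell within the WT range, with a log2 fold change of 0.82 and a standard error of 0.32 (quasi-likelihood test adjusted p = 0.133). Gbp6 (105270702 to 105293698) had 2.36, 1.83 and 1.84 CPM in WT and 2.61, 8.09 and 2.97 CPM in KO. KO2 alone stood well above WT, at 4.02 times the WT mean, and the log2 fold change of 1.19 had a standard error of 0.44 (adjusted p = 0.121 by the quasi-likelihood test). Gbp9 (105077630 to 105139539) had 3.19, 3.74 and 3.46 CPM in WT and 5.94, 6.61 and 3.80 CPM in KO. KO3 was barely above WT2, and the change was the smallest of the 10 (log2 fold change 0.66 with a standard error of 0.24, quasi-likelihood test adjusted p = 0.124). Gbp6 shares much of its sequence with neighbouring genes. Of the 100-base stretches of Gbp6 transcripts in GENCODE, 64.5% occurred letter for letter in a transcript of another gene, mainly the overlapping gene model Gm43302 and Gbp10, so its level is uncertain. For Gbp4 and Gbp9, whose annotated spans overlap each other and Gbp8 on the same strand, the shares were 1.64% and 1.65%. For Gbp2, Gbp3 and Gbp7 they were 0%, 0.694% and 10%, and Gbp7 shared 9.59% of its stretches with Gm43802.

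The regulatory IRGs of chromosome 11 span 9361 kb, with Irgm1 far from the neighbours Igtp and Irgm2, and differed among themselves. Irgm1 (48861968 to 48871683), whose loss in mice impairs resistance to mycobacteria and other intracellular microbes, had 6.82, 8.29 and 8.68 CPM in WT and 20.01, 42.2 and 36.8 CPM in KO. Every KO library was at least 2.52 times the WT mean, and Irgm1 had the lowest adjusted p of the 10 (log2 fold change 2.06 with a standard error of 0.28, quasi-likelihood test adjusted p = 0.00434). Igtp (58199556 to 58207591) had 4.28, 4.76 and 3.96 CPM in WT and 9.11, 22.5 and 23.8 CPM in KO. It rose 4.26-fold, with KO2 and KO3 close together and KO1 below them (log2 fold change 2.09 with a standard error of 0.35, quasi-likelihood test adjusted p = 0.0125). Irgm2 (58199618 to 58222782) had 10.9, 8.16 and 10.4 CPM in WT and 11.7, 26.9 and 28.3 CPM in KO. KO1 lay just above the highest WT library, and the log2 fold change of 1.18 (standard error 0.32) had an adjusted p of 0.0679 by the quasi-likelihood test. The ratio of Igtp to Irgm2, both in CPM, was 0.393, 0.583 and 0.379 in WT and 0.781, 0.837 and 0.840 in KO, without overlap. Such ratios were not computed over all genes, and a link to the promoter stretches was not tested. The annotated span of Irgm2 includes that of Igtp almost entirely, and 5.16% of the 100-base stretches of Igtp were also found in Irgm2, while Irgm1 shared none.

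Iigp1 (chromosome 18, 60376027 to 60392634), the effector IRG of the list, had 2.43, 3.36 and 2.83 CPM in WT and 5.12, 17.3 and 5.26 CPM in KO. All KO values were above all WT values, but KO2 alone was 6.00 times the WT mean while KO1 and KO3 were 1.78 and 1.83 times it. Its spread was the widest of the 10 in KO, with a coefficient of variation of 75.7%, and with a log2 fold change of 1.69 (standard error 0.48) it did not pass (adjusted p = 0.0744 by the quasi-likelihood test).

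**Figure D2:**
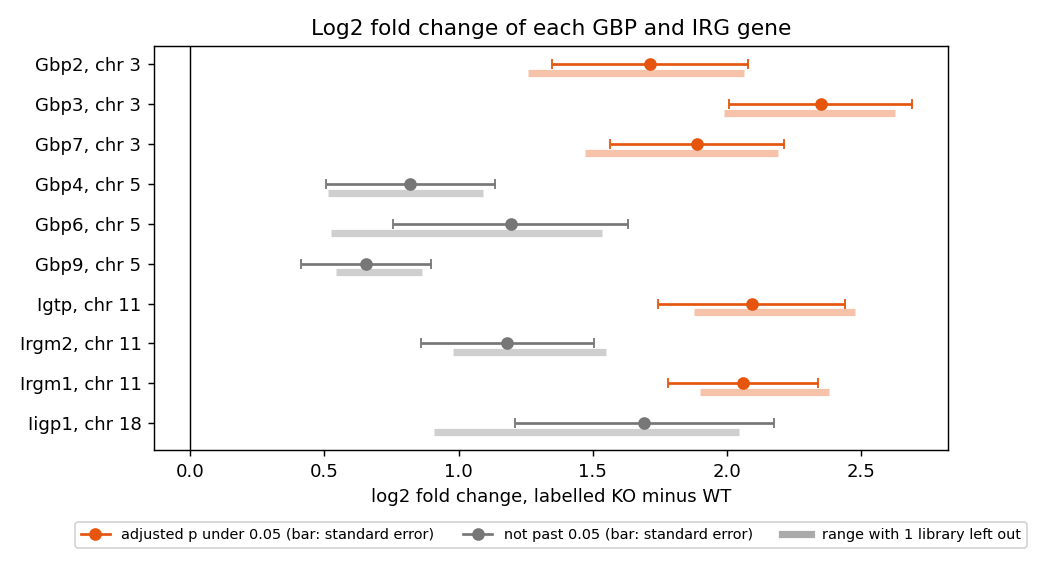
Log2 fold change of each gene, labelled KO minus WT, with its standard error (thin bar) and the range of fold changes over the 6 fits on 5 libraries (thick bar), orange where the adjusted p was under 0.05. Values run from 0.66 for Gbp9 to 2.35 for Gbp3, the 3 chromosome 5 genes are all grey, and none of the thick bars reaches 0.

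The calls depended on single libraries more than the directions did. With each library left out in turn, every log2 fold change of the 10 genes stayed positive, between 0.51 for Gbp4 and 2.63 for Gbp3. Gbp3 and Irgm1 kept an adjusted p under 0.05 in all 6 of these fits. Gbp2 lost it without WT1 (adjusted p = 0.152), WT2 (0.077), WT3 (0.124) or KO2 (0.0801), Igtp without WT1 (0.0765), WT2 (0.0518), WT3 (0.0674) or KO2 (0.0627), and Gbp7 without WT1 (0.0838), WT2 (0.0602) or WT3 (0.0701), all by the quasi-likelihood test on 5 libraries. Without KO3, all 10 genes were called, but so were 16.9% of all tested genes as higher, beside 4.38% with it. Iigp1 fell to a log2 fold change of 0.91 without KO2, and Gbp6 to 0.53. The exact test of edgeR and the Wald test of DESeq2 called 8 of the 10, the exceptions being Gbp4 and Gbp9, at backgrounds of 7.76% and 9.50% of all tested genes.

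The KO libraries differed from each other more than the WT libraries did. In each of the 10 genes the coefficient of variation was larger in KO than in WT, with a median of 43.7% against 13.7%, while over all tested genes the medians were 16.6% and 13.7% and 61.5% of genes had the larger value in KO. Summed over the 10 genes, the level was 46.1, 49.4 and 47.2 CPM in WT1, WT2 and WT3 and 92.4, 212 and 147 CPM in KO1, KO2 and KO3. KO2 was the highest KO library in 8 of the 10 genes, compared with 22.1% of all tested genes, and KO1 was the lowest in 8 of them. The position of KO3 differed between the groups of genes by chromosome. Summed over Gbp2, Gbp3 and Gbp7 the level was 31.9, 79.7 and 42.4 CPM in KO1, KO2 and KO3, whereas summed over Igtp, Irgm1 and Irgm2 it was 40.8, 91.6 and 88.9 CPM, so that KO3 was near KO2 for the 3 chromosome 11 genes and nearer KO1 for the 3 chromosome 3 genes. Iigp1, the IRG on chromosome 18, had KO3 next to KO1. The sum of the chromosome 3 genes was 1.29, 1.65 and 1.54 times that of the chromosome 5 genes in WT and 2.18, 3.36 and 4.03 times in KO, without overlap. Such ratios were not computed over all genes.

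Per kilobase of exon (RPKM, from the CPM and the union of exons in GENCODE), Irgm2 was the most abundant of the 10 transcripts in WT, at 2.66 ± 0.396 RPKM (SD, n = 3), followed by Gbp2 at 2.36 ± 0.381 and Igtp at 2.14 ± 0.200, whose ranges overlapped. Irgm1 came next at 1.37 ± 0.169 RPKM, apart from its neighbours in the order. Gbp3 at 0.872 ± 0.227 and Gbp7 at 0.843 ± 0.0319 RPKM overlapped, Gbp9 stood apart at 0.670 ± 0.0529, Iigp1 and Gbp4 overlapped at 0.494 ± 0.0798 and 0.477 ± 0.0601, and Gbp6 was the lowest at 0.338 ± 0.0507 RPKM. In KO the order was Igtp at 9.13 ± 4.02, Gbp2 at 7.71 ± 4.12, Irgm2 at 6.04 ± 2.498, Irgm1 at 5.68 ± 1.995, Gbp3 at 4.44 ± 1.93, Gbp7 at 3.11 ± 1.51, Iigp1 at 1.58 ± 1.20, Gbp9 at 1.05 ± 0.284, Gbp4 at 0.840 ± 0.354 and Gbp6 at 0.765 ± 0.515 RPKM. There every gene overlapped the next in the order. As a share of the summed RPKM of the 10, Gbp3 took 6.97, 8.73 and 5.61% in WT and 12.8, 11.8 and 8.90% in KO, and Gbp9 took 5.23, 5.64 and 5.56% in WT and 4.84, 2.27 and 1.79% in KO. Igtp and Irgm1 also took a larger share in every KO library than in any WT library, and in the remaining 6 genes the shares overlapped. These are shares of a common sum, so a rise in some genes goes with a fall in others. No such share was computed over all genes, so the separation of shares has no background here. In CPM, another measure that cannot serve as that background, the genotypes lay apart with KO above in 13.5% and below in 18.1% of all tested genes.

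Of 17 symbols listed as further interferon-inducible GTPases, 16 were in the counts and 5 were tested, the others falling under the filter. Mx1 and Mx2, antiviral dynamin-like GTPases induced by type I and type III interferons, were higher. Mx2 was under 1 CPM in every WT library (0.617, 0.808 and 0.720 CPM). It entered the test through the KO libraries alone, so its call is no support. Mx1 reached 1 CPM in WT2 only among the WT libraries (0.544, 1.91 and 0.989 CPM). Mx1 had 1.15 ± 0.698 CPM in WT and 9.12 ± 4.82 CPM in KO (log2 fold change 3.00, adjusted p = 0.0156 by the quasi-likelihood test), and Mx2 had 0.715 ± 0.0955 and 3.51 ± 1.27 CPM (2.30, adjusted p = 0.00745). Gbp5, the chromosome 3 neighbour of Gbp7 that promotes inflammasome assembly, had 2.18, 2.55 and 2.20 CPM in WT and 2.05, 4.87 and 3.75 CPM in KO. With overlapping genotypes it did not pass (log2 fold change 0.63 with a standard error of 0.31, quasi-likelihood test adjusted p = 0.214), and the same held for the IRG gene Ifi47 (1.05, adjusted p = 0.132) and for Irgq (-0.20, adjusted p = 0.434). Tgtp1 and Tgtp2, of whose 100-base stretches 73.1% and 76.8% were shared with other genes, and Gm12250, Gbp8, Gbp10, Gbp11 and Gbp2b stayed at or under 1.97 CPM in every library and were not tested. Of the 9 atlastins, dynamins and mitofusins, large GTPases of membranes that are not known as interferon targets, 0 passed the quasi-likelihood test in either direction (4 had an unadjusted p under 0.05, as did 29.6% of all tested genes), with a median log2 fold change of 0.12. These 4, Dnm1, Dnm1l, Opa1 and Mfn2, each passed in 1 of the 6 fits with a library left out.

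Among 91 gene symbols in 10 lists of the pathway, 70 were tested and 15 were called higher (21.4%, beside 4.38% of all tested genes) and 0 lower by the quasi-likelihood test. The exact test called 19 higher and 2 lower, and DESeq2 21 and 1. The lists had been drawn up with earlier results of these data known, and Stat2, Irf7 and Irf9 are among factors that the study itself picked out as changed in these samples, so the count is no independent evidence of direction. With each library left out in turn, Irf9, Nlrc5, Ciita, Usp18 and Rnf213 passed in all 6 fits. The others named here lost the threshold without 1 or more libraries, with adjusted p-values by the quasi-likelihood test up to 0.184 for Jak1 (without KO2) and 0.182 for Casp4 (without WT1), both of which passed in 1 fit, without KO3. By the same test, Trim21 (up to 0.102), Mx1 (0.079) and Aim2 (0.0775) were lost without WT1, WT3 or KO2. Stat2 (0.0721), Irf7 (0.0615) and Il1b (0.0758) were lost without WT1 or WT3, and Mx2 (0.0571) without WT1. Mx2 and Il1b were under 1 CPM in every WT library and above the filter in 3 of the fits. They are among the 15 called higher, having entered the test through the KO libraries alone.

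Interferon transcripts themselves were at the limit of detection. Ifng, the ligand that most strongly induces GBPs and IRGs, had 0 reads in WT1, WT2, WT3 and KO1, 3 in KO2 and 1 in KO3. A count of 0 allows up to 3 reads, or 0.109 to 0.154 CPM in these 4 libraries, counting error only. Ifnl2 and Ifnl3 had at most 1 read in a library, and Ifnk, a type I interferon of keratinocytes, had 1, 4 and 8 reads in WT and 14, 22 and 10 reads in KO and was under the filter. Of the 9 receptor and kinase genes tested, Jak1 alone passed, higher with a log2 fold change of 0.62 (adjusted p = 0.0482 by the quasi-likelihood test), overlapping Raver2 on the opposite strand. Ifngr1 (-0.42, adjusted p = 0.172 by the quasi-likelihood test) and Ifngr2 (-0.32, adjusted p = 0.24), the receptor chains of interferon gamma, and Ifnar1 (0.12, adjusted p = 0.578) did not pass. Ifngr1 passed in 1 of the 6 fits with a library left out, and Ifngr2 and Ifnar1 in none.

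Of 11 transcription factor genes of the response, 6 were higher and 5 did not pass. Stat2 had 21.3, 22.8 and 20.3 CPM in WT and 41.2, 90.1 and 63.3 CPM in KO, with KO2 the highest as in most of the GBP and IRG genes (log2 fold change 1.60, quasi-likelihood test adjusted p = 0.0121). Irf9 (1.84, adjusted p = 0.00119 by the quasi-likelihood test) and Irf7 (1.98, adjusted p = 0.00864 by the same test) rose as well. Irf9 is with Stat2 part of the complex that binds the ISRE. Irf9 overlaps Rnf31 on the same strand, and Irf7 overlaps Phrf1 on the opposite strand. The transactivators of MHC genes, Nlrc5 (2.32, adjusted p = 0.00116) and Ciita (1.41, adjusted p = 0.0031, overlapping Dexi on the opposite strand), were also higher. Irf1, the factor through which interferon gamma induces many GBP genes, had 12.8, 11.01 and 11.9 CPM in WT and 14.1, 18.1 and 17.0 CPM in KO. Its genotypes did not overlap, but with a log2 fold change of 0.46 (standard error 0.16) it did not pass (adjusted p = 0.109). Irf2, Irf3, Irf8 and Stat3 had log2 fold changes between -0.05 and 0.25 and did not pass.

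Usp18, which removes ISG15 and blocks signalling by the type I interferon receptor, rose from 1.93 ± 0.254 to 28.9 ± 13.1 CPM (log2 fold change 3.91 with a standard error of 0.39, quasi-likelihood test adjusted p = 0.000961). It was the only one of 6 inhibitor genes that passed, and Socs1, the inhibitor induced by interferon gamma, did not (0.37, adjusted p = 0.385). The machinery that works with GBPs and IRGs was mixed. None of 10 autophagy conjugation genes passed the quasi-likelihood test (3 had an unadjusted p under 0.05, against 29.6% of all tested genes), nor did any of 5 prenylation and CaaX processing genes (1 had an unadjusted p under 0.05). Those genes, Atg5, Map1lc3a, Gabarapl1 and Pggt1b, each passed in 1 of the 6 fits with a library left out. Among 8 inflammasome genes, Aim2 (log2 fold change 1.85, adjusted p = 0.014), Il1b (2.03, adjusted p = 0.0113) and Casp4 (1.503, adjusted p = 0.0499) were higher by the quasi-likelihood test. Il1b was under 1 CPM in every WT library (0.653, 0.893 and 0.630 CPM) and entered the test through the KO libraries alone, so its call is no support. Aim2 and Casp4 encode sensors of cytosolic DNA and lipopolysaccharide that GBPs assist. Aim2 overlaps Cadm3 and Il1b overlaps Il1bos, both on the opposite strand. Among 7 ubiquitin ligase and autophagy receptor genes, Trim21 (1.38, adjusted p = 0.0192) and Rnf213 (1.92, adjusted p = 0.00593) were higher.

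**Figure D3:**
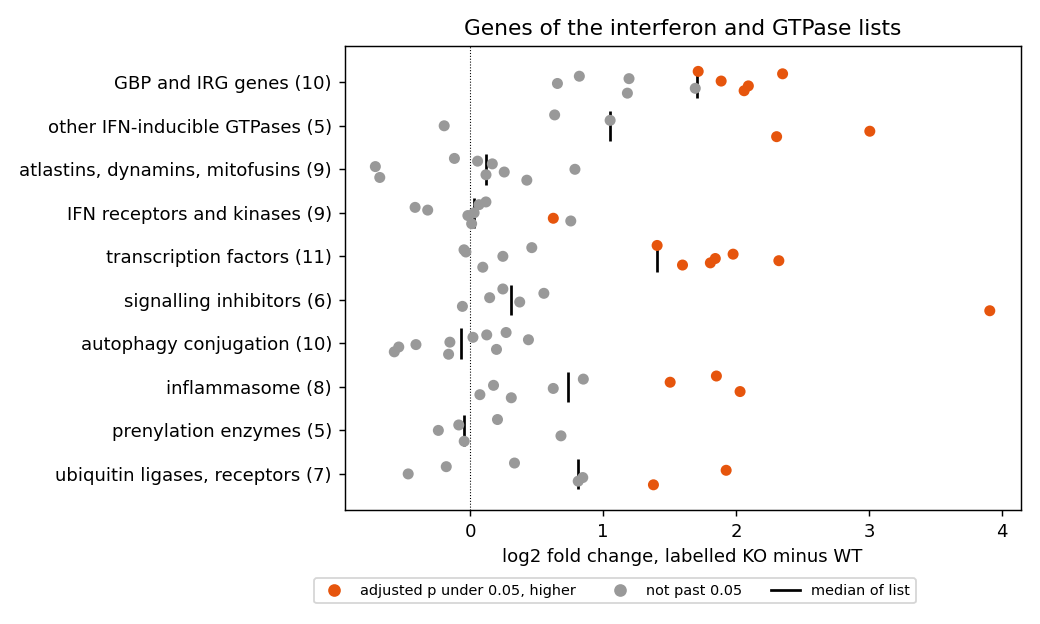
Log2 fold change, labelled KO minus WT, of every tested gene of the lists (number tested in brackets), orange where higher at an adjusted p under 0.05, with a black line at the median of each list. The 10 GBP and IRG genes (median 1.70) and the transcription factors (median 1.41) lie to the right, and the autophagy (median -0.07) and prenylation genes (median -0.05) lie around 0.

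The genes that are no member and whose log2 CPM followed the mean of the 10 most closely over the 6 libraries were Stat2 (Pearson r = 0.993), H2-T24 (0.986), Phf11d (0.986) and Oas2 (0.985). All 6 points of such a correlation share the difference between genotypes, so it is a description of likeness only. Among the 10 themselves, Gbp7 followed the mean of the other members most closely (0.998), and Gbp4 (0.791) and Gbp9 (0.786) least.

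Markers of the cell types of the lip were tested in the same fit. Of 71 marker symbols in 9 lists, 69 were in the counts and 59 were tested, of which 1 was higher and 2 were lower, beside 4.38% and 2.09% of all tested genes. Cd207, the defining gene of Langerhans cells, rose from 3.67 ± 0.577 to 12.9 ± 0.455 CPM (log2 fold change 1.81, adjusted p = 0.000932 by the quasi-likelihood test), and its KO libraries lay within 12.4 to 13.3 CPM. The summed CPM of 6 dendritic and Langerhans markers was 18.1 to 21.2 in WT and 29.5 to 34.3 in KO, but without Cd207 it was 14.9 to 17.7 and 16.5 to 21.9, with overlap. For 11 macrophage markers it was 546 to 597 in WT and 380 to 571 in KO, for 5 leukocyte markers 110 to 136 and 92.0 to 163, for 12 T cell and natural killer cell markers 8.29 to 13.4 and 10.1 to 20.5, and for 3 neutrophil markers 4.34 to 6.57 and 6.41 to 8.55. No marker of these 4 lists passed the test with all libraries. Ptprc, Laptm5, Csf1r, Lyz2, C1qa, C1qb, C1qc and Cxcr2 each passed in 1 of the 6 fits with a library left out. Ncr1, the defining gene of natural killer cells, was at 0 in WT2 and WT3 and at most 0.137 CPM in KO.

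In the structural cells, the sum of 10 keratinocyte markers was 26892 to 31456 CPM in WT and 38546 to 51732 CPM in KO. The separation came from Krt1 and Krt10, keratins of the suprabasal layers, without which the other 8 summed to 12080 to 14424 CPM in WT and 12461 to 13038 CPM in KO, and no marker of the list passed. The sum of 7 endothelial markers was 258 to 297 CPM in WT and 156 to 293 CPM in KO. That of 7 fibroblast markers was 6530 to 8463 and 2835 to 6790 CPM, and that of 8 skeletal muscle markers 8889 to 11574 and 3849 to 7504 CPM. In all 8 muscle markers every KO value lay below every WT value, as in 18.1% of all tested genes. The log2 fold change was negative in all 7 endothelial and all 7 fibroblast markers, while it was positive in 48.0% of all tested genes. Tnnt3 (log2 fold change -1.01, adjusted p = 0.0397 by the quasi-likelihood test) and Tnni2 (-1.05, adjusted p = 0.0484) of the muscle list were lower, and of the 6 fits with a library left out they passed in 1, without KO3. Among the KO libraries, KO1 had the highest levels of Krt1 and Krt10 and the lowest muscle sum, an order that rests on 3 mice. The genes left out of these sums were chosen after their values were seen. The part of these cell types in the GBP and IRG difference was not tested.

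**Figure D4:**
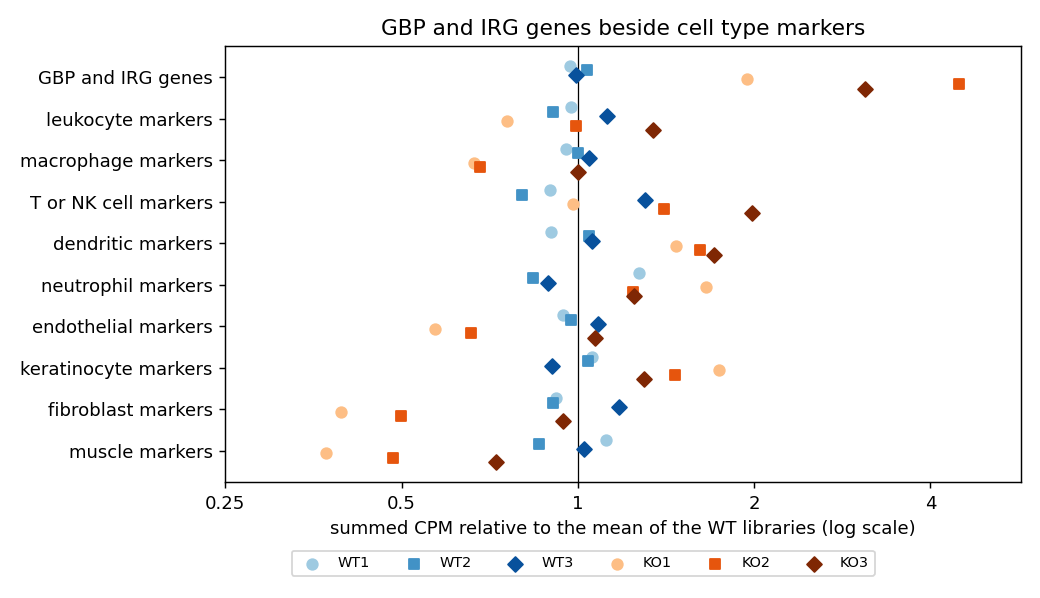
Summed CPM of the 10 GBP and IRG genes and of 9 cell type marker lists in each library, divided by the mean of the 3 WT libraries (log axis). Among the KO libraries the GBP and IRG sum is highest in KO2, the keratinocyte sum in KO1, and the leukocyte and dendritic sums in KO3. The macrophage sum is below all WT libraries in KO1 and KO2.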

How the data were processed

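RNA was extracted from the top lip of 3 WT and 3 KO mice and sequenced as paired-end mRNA libraries. Per the labels, the authors aligned reads with TopHat2 2.0.8 and Bowtie2 2.1.0 to GRCm38/mm10 and counted them per gene with HTSeq, and they deposited raw counts for 26814 symbols. Counting mode and strand setting were not given in the sources used here. Overlaps with other annotated genes are named for some genes only. Library totals ran from 20164081 to 29491767 counts, so that a count of 0 allows up to 3 counts, or 0.0986 to 0.154 CPM, covering counting error only. CPM values were computed here from the deposited counts with TMM scaling, and RPKM values with exon lengths from GENCODE vM21 (GRCm38), the source of all gene coordinates.

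Genes reaching 1 CPM in 3 or more libraries entered the quasi-likelihood test of edgeR 4.0.16 in R 4.3.3, with Benjamini-Hochberg adjustment over 15009 genes and a threshold of 0.05. The study's own fit, the edgeR exact test, and DESeq2 1.42.0 were alternatives, as were other scalings, other filters, a replicate block and each library left out. Fits were also run on simulated data, with an outcome not reported here. A gene that was not called is not thereby shown to be unchanged. Each library is 1 mouse, and litter or batch was not given in the sources used here. The 10 genes and all lists were chosen with earlier results of these data known. The text names the 10 genes, the listed genes that passed the test, listed genes of a stated role, and, of the 5 genes most like the mean of the 10, those reported here. Some listed genes that count in the totals are not reported here by name. Promoter sequences are from RefSeq (GRCm38.p6).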

Additional observations from a re-analysis of the deposited data

How the results depend on the processing

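Of the 10 GBP and IRG genes, 5 were called higher, and 5 were again called with DESeq2 size factors, library size alone, upper-quartile scaling and at least 10 counts in every library. The exact test called 8, DESeq2 8 and the fit with no filter 7, and with each library left out the number ran from 2 (without WT1, WT2 or WT3) to 10 (without KO3). None was called lower in any of these fits, and no log2 fold change of the 10 turned negative. Of the listed pathway genes 15 were called higher, and between 5 and 23 with a library left out, while 0 were called lower, against 2 by the exact test, 1 by DESeq2, 1 with upper-quartile scaling and 0 to 6 with a library left out. Over all genes 657 were called higher and 314 lower, with 1165 and 1073 by the exact test, 1426 and 1142 by DESeq2, 662 and 207 with DESeq2 size factors, 576 and 251 with library size alone, 614 and 404 with upper-quartile scaling, 915 and 204 with no filter, 494 and 204 with at least 10 counts in every library, and from 208 to 2496 higher and 18 to 2395 lower with a library left out. The cause of these differences was not tested. With the replicate number as a block, 5 of the 10 genes, 13 listed genes and 580 higher and 217 lower genes over all were called. A pairing by replicate number was not given in the sources used here. Deviations from the group means correlated at -0.192, 0.293 and 0.312 over 15009 genes for replicates 1, 2 and 3. KO2 and KO3 correlated best with the WT library of their own number, and KO1 did not. These correlations cannot decide whether samples shared a litter or batch. Counting error is largest for Gbp6, which had the lowest count of the 10 genes in a library, 41 reads in WT3.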
